A study of Mus musculus with 6 samples.

Results

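The genes described here encode the integrin chains, the laminin chains and the proteins that link laminin to the rest of the basement membrane or to the cell. They were chosen by symbol among protein-coding genes: every Itga gene, Itgb1 to Itgb8, every Lama, Lamb and Lamc gene, and Nid1, Nid2, Hspg2, Agrn and Dag1. The rule itself used no measured value, but it was set with earlier results of these data known. This gave 42 genes of the 54752 in the deposited table, made up of 18 integrin alpha chains, 8 integrin beta chains, 11 laminin chains and 5 linkers. The filter on low counts left 36 of them for testing. Of the other 6, Itgad, Itgal, Itgam and Itgax had no count in any library, and Itgae and Itgb6 had at most 8 and 6 reads in a library.

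The values come from RNA-seq of mouse embryonic fibroblasts, which are cells grown out of dissected embryos and kept in culture. There were 3 libraries in which a lentivirus had delivered a hairpin that targets p19ARF (shARF) and 3 in which it had delivered a negative control hairpin (shNT). The line is labelled p53 deleted in all 6 libraries, the genotype as ARF knockdown in shARF and WT in shNT, and the titles of both groups carry the tag neo; age and strain are not among the labels. The libraries are labelled biological replicates without saying whether infections or cultures were separate, and the spread behind each p-value is that between these samples and may be technical.

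Integrins are receptors made of 1 alpha and 1 beta chain that span the cell membrane and tie the matrix outside to the actin skeleton inside. Laminins are large secreted trimers of an alpha, a beta and a gamma chain that polymerise into the sheet on which a basement membrane is built. Nidogens and perlecan bridge that sheet to the collagen IV network, agrin binds laminin and dystroglycan, and dystroglycan is a non-integrin laminin receptor. Fibroblasts in culture hold the matrix mainly through integrins for fibronectin and collagen, and they also secrete several laminin chains.

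Total counts were 45.2 to 46.3 M in shARF libraries and 40.3 to 47.0 M in shNT libraries. The target of the hairpin, Cdkn2a, was at 95.6, 103 and 107 CPM (counts per 1 M, scaled by the normalization factors of the fit) in shARF libraries, against 231, 218 and 223 CPM in shNT libraries. Defining fibroblast markers were present in both groups: the summed level of 10 such genes was 20333 to 20506 CPM in shARF and 17700 to 19130 CPM in shNT libraries. Of these 10, 5 were called higher, 3 lower and 2 neither way. Most of the sum was Col1a1, Col1a2 and Col3a1, named after their values were seen. They averaged 9361, 5828 and 3044 CPM in shARF, and 7123, 5376 and 2521 CPM in shNT. Among the lower ones Pdgfra, a growth factor receptor, was at 91.4 CPM in shARF and 502 CPM in shNT. Dcn, which encodes decorin, was at 45.5 CPM in shARF and 198 CPM in shNT. The groups also differed in genes of sex and body position. Xist, the RNA of the inactive X chromosome, was at 45.7 CPM in shARF and 387 CPM in shNT. Of the Y-linked genes, Kdm5d was at 19.5 CPM in shARF and 0.782 CPM in shNT. Ddx3y, Eif2s3y and Uty were at 85.3, 38.3 and 21.7 CPM in shARF. In shNT these genes were lower but present, at 24.4, 12.8 and 9.61 CPM. All 8 HoxB genes tested and all 6 HoxC genes tested were lower in shARF, and all 8 HoxD genes tested were higher. Of 11 HoxA genes tested, 9 were higher, 1 was lower and 1 was not called. Over all genes tested, 28.8% were higher and 27.7% lower. The differences in genes of sex and body position lie along the same split of libraries as everything below, and their part in the results was not tested.

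In shARF, 18 of the 36 tested genes rose and 9 fell (edgeR, adjusted p under 0.05). This has to be read against a wide background, since 56.4% of the 17128 genes tested were called, 28.8% higher and 27.7% lower. The genes described here are also well expressed: 27 of them reached 5 CPM in either group, of which 24 were called (16 higher and 8 lower), where 66.8% of all genes at that level were called, 35.5% higher and 31.2% lower. Their median log2 fold change was 0.22, against -0.01 over all genes tested. Changes of at least 2-fold were called for 7 genes that rose and 3 that fell, where the background was 6.59% and 7.78% of genes. In 19 genes every shARF library was above every shNT library and in 10 every one was below, where 64.6% of all genes tested had groups that did not overlap. With library sizes alone as the scaling, the split was 13 higher and 12 lower here and 4023 higher and 5874 lower over all genes, where it is otherwise 4930 and 4737. In bulk RNA a change in the number of cells of a type and a change in RNA per cell cannot be told apart.

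Laminin chains and linkers on one side and integrin chains on the other gave different counts. Of the 16 laminin chains and linkers, all of which were tested, 11 were higher and 3 lower, and the median change was 0.45 (log2). Of 20 integrin chains tested, 7 were higher and 6 lower, with a median of -0.02. Over all genes tested 28.8% were higher and 27.7% lower. At 5 CPM or more in either group these shares were 35.5% and 31.2%, and the integrin counts lie near them. The difference between these counts was not tested.

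**Figure D1:**
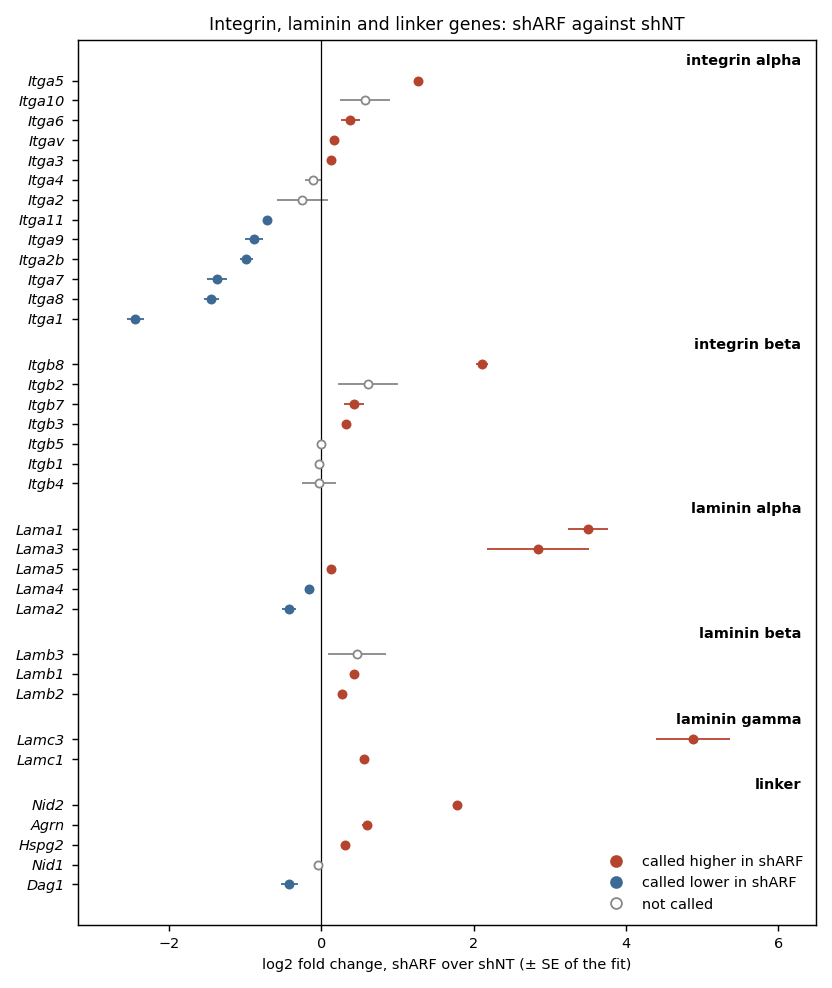
Log2 fold change of the tested genes whose values are given (horizontal axis, shARF over shNT, bars ± the SE of the fit), grouped by class, with genes called higher in red, called lower in blue and not called as open grey circles. Lamc1 (0.56) and Lamc3 (4.88) lie to the right of 0, while integrin alpha chains run from Itga1 at -2.44 to Itga5 at 1.27.

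The most abundant gamma and beta chains of laminin rose. Lamc1 (ENSMUSG00000026478.14; GRCm38 chromosome 1, 153218922 to 153332786, minus strand) encodes the gamma chain found in most laminins. It was at 530, 546 and 532 CPM in shARF libraries, against 358, 368 and 366 CPM in shNT libraries. The groups lay well apart, with a log2 fold change of 0.56 (SE 0.02, edgeR adjusted p = 2.02e-06). Lamb1 (ENSMUSG00000002900.16; chromosome 12, 31265234 to 31329644, plus strand), a widely used beta chain, was at 387, 381 and 391 CPM in shARF libraries, against 293, 283 and 285 CPM in shNT libraries. Its log2 fold change was 0.43 (SE 0.02, edgeR adjusted p = 6.9e-06). Lamb2 (ENSMUSG00000052911.9; chromosome 9, 108479736 to 108490530, plus strand), the beta chain of laminins at the neuromuscular junction and in the kidney filter, was at 263, 253 and 266 CPM in shARF libraries, against 210, 215 and 225 CPM in shNT libraries. It rose less, by 0.27 (SE 0.03, edgeR adjusted p = 4.33e-04), and every shARF library was again above every shNT library.

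Among chains at low levels, Lamc3 and Lama3 rose and Lamb3 was not called. Lamc3 was at 1.54, 1.67 and 1.57 CPM in shARF libraries, which is 69 to 73 reads, and had 2, 5 and 0 reads in shNT libraries. Its fitted log2 fold change of 4.88 (SE 0.49, edgeR adjusted p = 1.67e-04) rests on those few reads and ranged from 4.37 without shNT replicate 3 to 5.96 without shNT replicate 2. Lamb3, a beta chain of epithelial laminin, had 15 to 18 reads in shARF libraries and 6 to 16 in shNT libraries and was not called (edgeR adjusted p = 0.341). Lama3, an alpha chain of epithelial laminin, had 23 to 45 reads in shARF libraries and 0 to 9 in shNT libraries and was called higher (log2 fold change 2.84, SE 0.67, edgeR adjusted p = 0.0101). This fold ranged from 2.26 without shNT replicate 1 to 3.49 without shNT replicate 2. Markers of epithelial cells moved as well: the summed level of 7 such genes was 7.05 to 7.73 CPM in shARF libraries and 15.3 to 17.5 CPM in shNT libraries, of which 2 were called higher, 1 lower and 2 neither way. Krt14 was at 1.91 CPM in shARF and 0 in shNT, Cdh1 at 4.8 CPM in shARF and 2.14 CPM in shNT, and Krt18 at 0.15 CPM in shARF and 12.7 CPM in shNT. The part of such cells in the rise of Lama3 was not tested.

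Alpha chains of laminin went both ways. Lama5, the alpha chain of laminins in many adult and embryonic basement membranes, was at 125, 124 and 128 CPM in shARF libraries, against 117, 115 and 115 CPM in shNT libraries (log2 fold change 0.12, SE 0.025, edgeR adjusted p = 0.00524). This small rise was not called with library sizes alone (edgeR adjusted p = 0.351; the range over the alternatives was 0.00311 to 0.351). Lama4, a truncated alpha chain of vascular and mesenchymal laminins, was at 96.1, 97.2 and 98.6 CPM in shARF libraries, against 108, 113 and 106 CPM in shNT libraries, and fell by 0.16 on the log2 scale (SE 0.03, edgeR adjusted p = 0.00511). Lama2, the alpha chain of muscle laminin, whose loss causes a congenital muscular dystrophy, was at 6.65, 7.21 and 7.49 CPM in shARF libraries, against 8.47, 9.9 and 10.2 CPM in shNT libraries. It fell by 0.42 (SE 0.09, edgeR adjusted p = 0.00761). Lama1, the alpha chain of the laminin of the earliest embryonic basement membranes, showed the opposite: it was at 4.64, 6.41 and 5.44 CPM in shARF libraries, against 0.434, 0.678 and 0.316 CPM in shNT libraries. Its log2 fold change was 3.50 (SE 0.26, edgeR adjusted p = 3.99e-05), and shNT libraries held 13 to 33 reads of it.

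**Figure D2:**
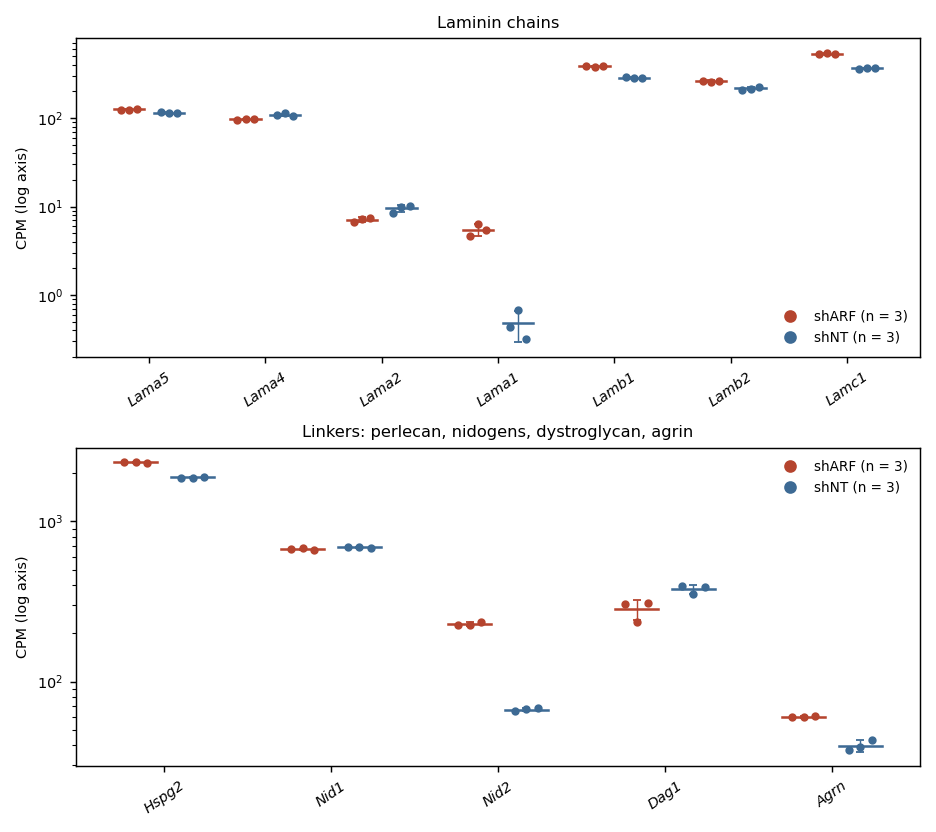
CPM of laminin chains and linkers in each library (log axis), shARF in red and shNT in blue, with the mean and SD of 3 libraries; Lamb3, Lama3 and Lamc3, which had under 80 reads in every library, are left out. Nid2 shows the widest gap among the linkers (229 CPM in shARF and 66.8 CPM in shNT), and Dag1 has 1 shARF library below the others.

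Among the linkers the nidogens parted. Nid2 (ENSMUSG00000021806.4; chromosome 14, 19751265 to 19811787, plus strand) was at 227, 224 and 235 CPM in shARF libraries, against 65.2, 67 and 68.1 CPM in shNT libraries. The log2 fold change was 1.78 (SE 0.03, edgeR adjusted p = 1.59e-07), which is 3.42-fold. Nid1 (ENSMUSG00000005397.8; chromosome 13, 13437551 to 13512269, plus strand) was at 670, 678 and 668 CPM in shARF libraries, against 690, 696 and 687 CPM in shNT libraries. It was not called (log2 fold change -0.04, SE 0.02, edgeR adjusted p = 0.074), although its groups did not overlap, and it was called lower under 3 of the alternatives. Per kb of exon, Nid1 stood at 96.8 ± 0.737 CPM in shARF and 99.5 ± 0.677 CPM in shNT, and Nid2 at 44.2 ± 1.14 CPM in shARF and 12.9 ± 0.284 CPM in shNT (SD, n = 3 each). Nid1 thus stayed the higher of the 2 nidogens per length in both groups. Nid2 shares 437 bases of exon (8.45% of its exons) with Rtraf on the opposite strand. Rtraf was at 107 CPM in shARF and 90.4 CPM in shNT, and whether counting used the strand is not stated in the labels.

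Perlecan and agrin, heparan sulphate proteoglycans of the basement membrane, rose. Hspg2, which encodes perlecan (ENSMUSG00000028763.17; chromosome 4, 137468769 to 137570630, plus strand), was at 2349, 2339 and 2336 CPM in shARF libraries, against 1876, 1876 and 1906 CPM in shNT libraries (log2 fold change 0.31, SE 0.015, edgeR adjusted p = 4.79e-06). Agrn (chromosome 4, 156165290 to 156197488, minus strand), known for clustering acetylcholine receptors at the nerve-muscle junction, was at 60.2, 59.6 and 61 CPM in shARF libraries, against 37.1, 38.8 and 43.3 CPM in shNT libraries (0.60, SE 0.06, edgeR adjusted p = 1.85e-04). Both lie on chromosome 4, where other genes within 5 Mb of them had median log2 fold changes of 0.19 around Hspg2 and 0.26 around Agrn. All 27 called genes stayed on the same side of 0 when the median of their neighbours was subtracted.

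Dag1 (ENSMUSG00000039952.15; chromosome 9, 108204634 to 108263958, minus strand) encodes both subunits of dystroglycan. It was at 304, 235 and 310 CPM in shARF libraries, against 398, 351 and 387 CPM in shNT libraries. All shARF libraries lay below all shNT libraries, and shARF replicate 2 was the lowest. Dag1 fell by 0.42 on the log2 scale (SE 0.11, edgeR adjusted p = 0.0147), and by 0.30 without shARF replicate 2 (edgeR adjusted p = 0.00625, with 1.03e-04 to 0.0439 across alternatives). Lamb2, which rose, lies 215.8 kb from Dag1.

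Among the integrin alpha chains that recognise an arginine-glycine-aspartate motif, Itga5 rose by far the most. Itga5 (ENSMUSG00000000555.8; chromosome 15, 103344286 to 103366763, minus strand) pairs with Itgb1 to form the main fibronectin receptor. It was at 737, 714 and 707 CPM in shARF libraries, against 298, 297 and 299 CPM in shNT libraries. The log2 fold change was 1.27 (SE 0.02, edgeR adjusted p = 1.54e-07), or 2.41-fold, with no overlap. Itgav, which pairs with Itgb1, Itgb3, Itgb5, Itgb6 and Itgb8 and binds vitronectin, fibronectin and latent TGF-beta, was at 212, 226 and 223 CPM in shARF libraries, against 199, 199 and 190 CPM in shNT libraries. It rose by 0.17 (SE 0.03, edgeR adjusted p = 0.00399), a call that was lost with library sizes alone (0.08, edgeR adjusted p = 0.101, the highest of the alternatives).

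The other chains of that group fell. Itga8 (ENSMUSG00000026768.10; chromosome 2, 12106632 to 12301922, minus strand), a partner of Itgb1 that binds nephronectin and is needed in kidney development, was at 5.85, 5.89 and 7.34 CPM in shARF libraries, against 17.4, 17.3 and 17.4 CPM in shNT libraries (log2 fold change -1.45, SE 0.10, edgeR adjusted p = 2.39e-05). Its ligand gene Npnt, named after its values were seen, was at 10.1, 7.98 and 10.3 CPM in shARF libraries, against 25.1, 34.5 and 34.5 CPM in shNT libraries (-1.73, SE 0.16, edgeR adjusted p = 1.08e-04). Both receptor chain and ligand were thus lower in every shARF library. Itga2b, the platelet chain that pairs with Itgb3, was at 6.23, 6.48 and 5.68 CPM in shARF libraries, against 11.9, 11.4 and 13.2 CPM in shNT libraries (-0.99, SE 0.09, edgeR adjusted p = 8.03e-05). Of 5 platelet markers, Gp9 and Gp1ba were at 0 in all libraries and Pf4 at 0 in shARF, while the summed level was 13.1 to 15 CPM in shARF libraries and 27.6 to 30.9 CPM in shNT libraries, nearly all of it Ppbp (13.5 CPM in shARF and 28.3 CPM in shNT).

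Collagen-binding alpha chains, which all pair with Itgb1, did not rise. Itga1 (ENSMUSG00000042284.10; chromosome 13, 114953096 to 115101964, minus strand), a receptor for collagen IV and fibrillar collagens, fell to 6.11, 6.61 and 8.1 CPM in shARF libraries, against 38.8, 38.9 and 35.4 CPM in shNT libraries. With a log2 fold change of -2.44 (SE 0.11, edgeR adjusted p = 3.96e-06) it showed the largest fall of the 36 genes, leaving 18.4% of the shNT level. Its neighbour Itga2, 21 kb away, another collagen receptor chain, was near 1 CPM in both groups and was not called (-0.25, SE 0.33, edgeR adjusted p = 0.556). Itga11, the fibroblast receptor for fibrillar collagen, was at 83.2, 83.3 and 93.6 CPM in shARF libraries, against 136, 145 and 145 CPM in shNT libraries (-0.71, SE 0.06, edgeR adjusted p = 5e-05). Itga10, a cartilage chain, was at 0.89 to 1.5 CPM in shARF libraries and 0.607 to 1.24 CPM in shNT libraries. It was not called (0.58, SE 0.33, edgeR adjusted p = 0.181), but it was without shNT replicate 1 (0.94, edgeR adjusted p = 0.0426, the lowest in a range up to 0.388). Col1a1, a fibrillar collagen among the fibroblast markers, named after its values were seen, averaged 9361 CPM in shARF and 7123 CPM in shNT (0.39, SE 0.03, edgeR adjusted p = 5.58e-05).

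Laminin-binding alpha chains differed among themselves. Itga3, a partner of Itgb1 that binds laminins holding Lama5 or Lama3, was at 130, 125 and 127 CPM in shARF libraries, against 117, 113 and 119 CPM in shNT libraries. It rose by 0.13 (SE 0.03, edgeR adjusted p = 0.0101), a call lost with library sizes alone (0.04, edgeR adjusted p = 0.271, the highest of the alternatives). Itga6, which pairs with Itgb1 or Itgb4, was at 43, 40.4 and 39.4 CPM in shARF libraries, against 37.8, 30.2 and 26.3 CPM in shNT libraries. Its call (0.38, SE 0.13, edgeR adjusted p = 0.0383) was lost when any library other than shNT replicate 1 was left out. Those fits gave 0.35 without shARF replicate 1, 0.39 without shARF replicate 2, 0.41 without shARF replicate 3, 0.36 without shNT replicate 2 and 0.26 without shNT replicate 3. Their edgeR adjusted p values were 0.103, 0.0779, 0.0665, 0.104 and 0.0725, and alternatives as a whole gave 0.00283 to 0.104. Itga7, the laminin receptor chain of skeletal and smooth muscle, fell to 2.79, 2.53 and 2.62 CPM in shARF libraries, against 5.67, 7.33 and 7.53 CPM in shNT libraries (-1.37, SE 0.13, edgeR adjusted p = 1.31e-04). Of 6 skeletal muscle markers, 2 were tested, and the regulators Myod1 and Myog were at 0 in all libraries. Des was at 0.39 CPM in shARF and 0.0887 CPM in shNT and was called higher. Mylpf was at 0.307 CPM in shARF and 0.586 CPM in shNT and was not called. The summed level of 6 smooth muscle markers was 1347 to 1434 CPM in shARF and 1451 to 1500 CPM in shNT libraries, with 5 of 6 called lower, and their part in the fall of Itga7, Itga8 and Itga1 was not tested.

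The last alpha chains were low. Itga4, which binds fibronectin and Vcam1, was at 4.13 to 4.65 CPM in shARF libraries and 4.23 to 5.22 CPM in shNT libraries and was not called (edgeR adjusted p = 0.412). Itga9, which binds tenascin and other ligands, was at 2.1, 2.05 and 2.37 CPM in shARF libraries, against 4.02, 4.41 and 3.57 CPM in shNT libraries (-0.88, SE 0.12, edgeR adjusted p = 7.78e-04). Of the 5 leukocyte alpha chains, 4 had no count anywhere, and the fifth, Itgae, had 8 reads in a single shNT library. Of 8 leukocyte markers, 5 were at 0 in all libraries and Ptprc averaged 0 CPM in shARF and 0.0243 CPM in shNT. The summed level of the 8 was 1.5 to 1.99 CPM in shARF and 6.73 to 7.47 CPM in shNT libraries, most of it Csf1r and Cd68. These 2 were tested and both were called lower. Csf1r was at 0.338 CPM in shARF and 4.49 CPM in shNT (log2 fold change -3.72), and Cd68 at 1.36 CPM in shARF and 2.5 CPM in shNT (-0.88).

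**Figure D3:**
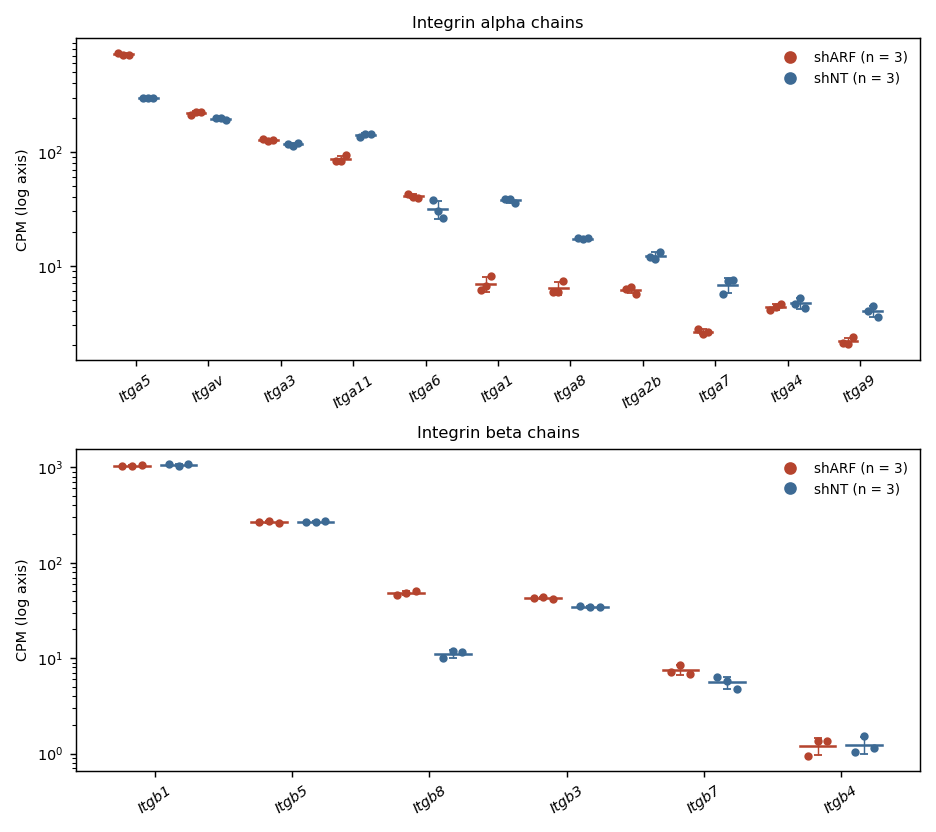
CPM of integrin alpha chains (upper panel) and beta chains (lower panel) in each library (log axis), shARF in red and shNT in blue, with the mean and SD of 3 libraries. Itga5 (719 CPM in shARF and 298 CPM in shNT) and Itgb8 (48 and 11.1 CPM in shARF and shNT) stand higher in shARF, Itga1 and Itga8 lower, and the points of Itgb1 and Itgb5 overlap; Itga2, Itga10, Itgb2 and the untested chains are left out.

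Integrin beta chains moved less, apart from Itgb8. Itgb1 (ENSMUSG00000025809.15; chromosome 8, 128685654 to 128733200, plus strand), the partner of most alpha chains above, was at 1020.4, 1039 and 1052 CPM in shARF libraries, against 1072, 1030.3 and 1081 CPM in shNT libraries. The groups overlapped and it was not called (-0.03, SE 0.02, edgeR adjusted p = 0.278). Itgb5, a vitronectin receptor chain, averaged 268 ± 6.47 CPM in shARF and 269 ± 5.26 CPM in shNT (SD, n = 3 each; -0.01, SE 0.03, edgeR adjusted p = 0.823). With library sizes alone both were called lower, by 0.12 for Itgb1 (edgeR adjusted p = 0.0029) and 0.10 for Itgb5 (edgeR adjusted p = 0.0133), the lowest of their alternatives, which ran up to 0.605 and 0.997.

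Itgb8 (ENSMUSG00000025321.14; chromosome 12, 119158022 to 119238802, minus strand) pairs with Itgav and activates latent TGF-beta. It rose to 45.5, 47.9 and 50.6 CPM in shARF libraries, against 9.99, 11.9 and 11.5 CPM in shNT libraries. The log2 fold change of 2.11 (SE 0.08, edgeR adjusted p = 1.88e-06) is 4.31-fold and the largest rise among integrin chains. The 15 other tested genes within 5 Mb had a median of 0.52, the furthest from 0 around any called gene of the set. Itgb3, another partner of Itgav, was at 42.6, 44.2 and 42 CPM in shARF libraries, against 35.1, 34.2 and 34 CPM in shNT libraries (0.32, SE 0.04, edgeR adjusted p = 4.66e-04). Itgb6, the epithelial partner of Itgav, had at most 6 reads in a library and was not tested.

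Itgb7, a lymphocyte chain, was at 7.21, 8.49 and 6.89 CPM in shARF libraries, against 6.32, 5.73 and 4.74 CPM in shNT libraries. Its call (0.43, SE 0.13, edgeR adjusted p = 0.0294) was lost without shARF replicate 1 (0.46, edgeR adjusted p = 0.0521), shARF replicate 2 (0.33, 0.0865), shNT replicate 2 (0.45, 0.0659) or shNT replicate 3 (0.32, 0.0709), within a range of 0.025 to 0.0865. Itgb2, the shared chain of leukocyte integrins, had 20 to 27 reads in shARF libraries and 8 to 22 in shNT libraries (edgeR adjusted p = 0.233). Itgb4, the hemidesmosome chain, averaged 1.21 ± 0.235 CPM in shARF and 1.23 ± 0.252 CPM in shNT (edgeR adjusted p = 0.909). Neither was called.

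To compare chains with one another, CPM were divided by the summed length of the exons of each gene. Per kb of exon, the integrin alpha chains together were at 216, 212 and 213 CPM in shARF libraries, against 139 CPM in each shNT library. The beta chains together were at 339, 347 and 346 CPM in shARF libraries, against 347, 337 and 351 CPM in shNT libraries. The alpha sum was thus higher in shARF while the beta sum overlapped. Itga5 alone averaged 146 CPM per kb in shARF and 60.5 in shNT. Itga5 made up 68.2 ± 0.846% of the alpha sum in shARF and 43.5 ± 0.0903% in shNT. Itga11 made up 7.91 ± 0.582% in shARF and 19.9 ± 0.709% in shNT, Itgav 9.6 ± 0.407% and 13.1 ± 0.366% in shARF and shNT, and Itga3 10.4 ± 0.0862% and 14.7 ± 0.403% in shARF and shNT (SD, n = 3 each). Of these 4 chains, Itga5 alone took a larger share in shARF. Itgav and Itga3 were called higher in CPM, and their shares were smaller because the sum was larger. Itgb1 held 73.8 ± 0.571% of the beta sum in shARF and 75.4 ± 0.384% in shNT, and Itgb5 21.9 ± 0.497% and 22 ± 0.36% in shARF and shNT.

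In laminins the alpha chains were the least abundant class per length. Their sum was 19.9, 20.1 and 20.5 CPM per kb in shARF libraries, against 19.7, 20.1 and 19.6 in shNT libraries. The beta chains summed to 82.3, 80.2 and 83.2 CPM per kb in shARF libraries, against 64.1, 63.9 and 65.8 in shNT libraries. The gamma chains summed to 65.4, 67.3 and 65.7 CPM per kb in shARF libraries, against 43.8, 44.9 and 44.8 in shNT libraries. Beta and gamma sums were thus higher in shARF and alpha sums overlapped. Lamc1 made up 97.9% of the gamma sum in shARF and 99% in shNT. Each sum or share whose groups did not overlap had p = 0.1 in a two-sided exact permutation test, and no smaller p can be reached with 3 libraries against 3. For the beta integrin sum and the alpha laminin sum the exact p was 0.9 and 0.3. With the longest transcript as the length, the laminin alpha sums were 28.5 ± 0.424 CPM per kb in shARF and 29.2 ± 0.587 in shNT, and the order of Lama5 and Lama4 turned. Lama5 then held 38.7% in shARF and 34.8% in shNT and Lama4 56.4% in shARF and 61.6% in shNT, in place of 54.7% and 51.3% for Lama5 and 39.9% and 45.4% for Lama4. The order of Lamb1 and Lamb2 turned as well. Lamb1 then held 59% of the beta sum in shARF and 56.3% in shNT, and Lamb2 40.9% in shARF and 43.6% in shNT. By summed exon length, Lamb1 held 47.6% in shARF and 44.8% in shNT, and Lamb2 52.3% in shARF and 55.1% in shNT. Which of these alpha chains, or of these beta chains, is the more abundant is therefore not settled by these lengths.

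**Figure D4:**
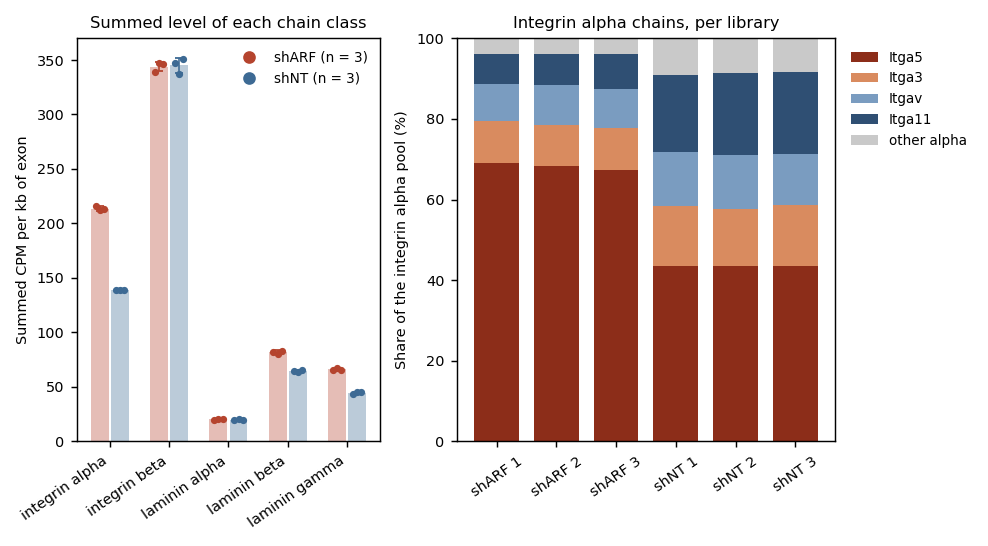
Left, the summed level of each chain class per kb of exon (bars, mean of 3 libraries from 0, with SD and each library as a point; shARF red, shNT blue). Right, the shares of Itga5, Itga3, Itgav and Itga11 in the integrin alpha sum of each library, with the other alpha chains pooled. Itga5 fills about the same part of all shARF bars (67.3 to 69%) and of all shNT bars (43.4 to 43.6%).

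RefSeq promoters of build GRCm38.p6, from 250 bases before to 50 after a start, were found for 27 of the 42 genes. Among called genes of at least 5 CPM with a single entry, those shown have the 2 largest rises, Itgb8 and Itga5, and the 2 largest falls, Itga1 and Itga8, so that the sequences behind genes that went opposite ways can be set side by side. Both strands were searched for 4 motifs. Capitals mark a match to the GC box, spelled GGGCGG, bound by Sp factors. The AP-1 motif was spelled TGANTCA. The TATA box was spelled TATAAA. The motif of TEAD factors was spelled GGAATG.
Itgb8, chr12:119238227-119238526, minus strand: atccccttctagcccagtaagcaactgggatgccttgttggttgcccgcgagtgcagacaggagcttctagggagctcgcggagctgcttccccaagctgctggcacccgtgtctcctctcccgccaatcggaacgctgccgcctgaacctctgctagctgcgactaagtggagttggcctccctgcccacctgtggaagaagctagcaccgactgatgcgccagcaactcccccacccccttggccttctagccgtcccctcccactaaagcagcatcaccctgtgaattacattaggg
Itga5, chr15:103366742-103367041, minus strand: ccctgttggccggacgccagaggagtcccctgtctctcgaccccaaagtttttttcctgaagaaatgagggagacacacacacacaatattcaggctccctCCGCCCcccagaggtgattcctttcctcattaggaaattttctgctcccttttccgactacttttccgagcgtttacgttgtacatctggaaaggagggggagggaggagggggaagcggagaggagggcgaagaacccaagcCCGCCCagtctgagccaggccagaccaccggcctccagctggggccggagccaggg
Itga1, chr13:115101915-115102214, minus strand: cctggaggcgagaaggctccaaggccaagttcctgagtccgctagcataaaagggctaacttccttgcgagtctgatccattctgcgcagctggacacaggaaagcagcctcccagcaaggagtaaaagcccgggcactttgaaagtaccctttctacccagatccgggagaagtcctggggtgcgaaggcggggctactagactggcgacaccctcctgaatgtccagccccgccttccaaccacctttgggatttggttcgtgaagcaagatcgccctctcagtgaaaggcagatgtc
Itga8, chr2:12301895-12302194, minus strand: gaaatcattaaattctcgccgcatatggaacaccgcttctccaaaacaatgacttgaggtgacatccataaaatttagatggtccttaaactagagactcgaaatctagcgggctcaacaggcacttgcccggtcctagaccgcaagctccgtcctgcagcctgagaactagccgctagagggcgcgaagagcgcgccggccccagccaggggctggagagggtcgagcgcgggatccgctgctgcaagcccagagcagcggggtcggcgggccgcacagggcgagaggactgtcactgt
Itga5 has 2 GC boxes and no other motif searched, and the promoters of Itgb8, Itga1 and Itga8 hold none of the 4 motifs. They are rich in G and C all the same (60.7%, 58.7%, 56.7% and 59% for Itgb8, Itga5, Itga1 and Itga8, where the median of all promoters is 52.7%). Over the 32 promoters of the 27 genes, a GC box was found in 18, AP-1 letters in 3, TEAD letters in 4 and a TATA box in 0, where 35.7%, 7.81%, 14.7% and 13.6% of all 32851 promoters hold them. Among promoters of genes called higher, 9 of 12 held a GC box, and among those called lower 3 of 8. Matches overlapped in none of the 4 promoters shown. These are matches of letters in a short window and say nothing of what binds there.

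Other genes of cell-matrix adhesion were taken from 5 lists, with 131 genes, of which 113 were tested. The lists were chosen for the known roles of their genes, with earlier results of these data known. Of these, 59 were higher and 28 lower, or 77.0% called. The share was 56.4% of all genes tested (28.8% higher and 27.7% lower). Of genes at 5 CPM or more in either group, 66.8% were called (35.5% higher and 31.2% lower). The counts of each list below have to be read against these shares, and the differences from them were not tested. Of 21 other basement membrane components tested, 9 were higher and 9 lower, and the median change was 0.18 (log2). The chains of the main collagen IV network rose: Col4a1 was at 1019.8, 1036 and 1056 CPM in shARF libraries, against 230, 279 and 236 CPM in shNT libraries (2.06, SE 0.07, edgeR adjusted p = 1.57e-06). Col4a2 averaged 877 ± 9.36 CPM in shARF and 238 ± 3.18 CPM in shNT (1.88, edgeR adjusted p = 8.76e-08). Smoc2, a calcium-binding matrix protein related to Sparc, averaged 144 ± 8.63 CPM in shARF and 21.8 ± 1.35 CPM in shNT (2.73, edgeR adjusted p = 3.67e-07). Fbln1, which encodes fibulin and binds laminin and nidogen, fell to 65.4 ± 0.363 CPM in shARF, against 141 ± 5.04 CPM in shNT (-1.11, edgeR adjusted p = 7.96e-07). Hmcn1, which encodes hemicentin, fell to 12.6 ± 1.03 CPM in shARF, against 57.6 ± 1.58 CPM in shNT (-2.19, edgeR adjusted p = 8.12e-07; SD, n = 3 each throughout). Of the other collagen IV chains, named after their values were seen, Col4a5 and Col4a6 were called lower, with log2 fold changes of -0.18 and -0.92, and Col4a3 and Col4a4 were not tested.

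Of 34 integrin adhesion proteins of the cytoplasm tested, 17 were higher and 6 lower, with a median of 0.15. Actn1, an actin crosslinker, averaged 716 ± 3.89 CPM in shARF and 451 ± 0.46 CPM in shNT (0.67, edgeR adjusted p = 3.63e-07), and Vcl, which encodes vinculin, 1004 ± 9.75 and 741 ± 7.8 CPM in shARF and shNT (0.44, edgeR adjusted p = 2.25e-06). Tgfb1i1, which encodes the paxillin relative Hic-5, fell to 36.4 ± 1.27 CPM in shARF, against 80.3 ± 3.32 CPM in shNT (-1.14, edgeR adjusted p = 2.7e-06). A pair of binding partners of integrin-linked kinase, named after their values were seen, varied between shARF libraries. Lims1, which encodes PINCH, was at 204, 69.3 and 207 CPM in shARF libraries, against 63, 64.2 and 58.7 CPM in shNT libraries (1.37, edgeR adjusted p = 0.0204). Parva was at 76.4, 86.3 and 173 CPM in shARF libraries, against 251, 289 and 247 CPM in shNT libraries (-1.23, edgeR adjusted p = 0.0114). The groups did not overlap for either, but the Lims1 call was lost when any library other than shARF replicate 2 was left out (edgeR adjusted p between 0.0544 and 0.0641).

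Of 24 integrin ligands other than laminins tested, 15 were higher and 7 lower, with a median of 0.23. Fn1, the ligand of the receptor that Itga5 forms, named for that role, was at 4416, 4562 and 4548 CPM in shARF libraries, against 4471, 4637 and 4693 CPM in shNT libraries. These overlapped and Fn1 was not called (-0.03, SE 0.02, edgeR adjusted p = 0.334). Fbn1, which encodes fibrillin, averaged 3014 ± 37.4 CPM in shARF and 1539 ± 17.5 CPM in shNT (0.97, edgeR adjusted p = 1.68e-07). Tgfb3, whose latent form is bound by integrins that hold Itgav, was at 225, 222 and 222 CPM in shARF libraries, against 97, 99.2 and 97.8 CPM in shNT libraries (1.19, edgeR adjusted p = 1.89e-07). Thbs2, an antiangiogenic thrombospondin, fell to 560 ± 4.17 CPM in shARF, against 991 ± 12.3 CPM in shNT (-0.82, edgeR adjusted p = 2.51e-07). Icam1, a ligand of the leukocyte integrins that hold Itgb2, was at 11.3, 10.9 and 11.9 CPM in shARF libraries, against 0.304, 0.267 and 0.656 CPM in shNT libraries (4.82, SE 0.26, edgeR adjusted p = 8.8e-06). The ligand gene Icam1 thus rose in cells in which no leukocyte alpha chain reached the level needed for testing.

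Of 24 genes of the dystroglycan complex and of dystroglycan glycosylation tested, 11 were higher and 6 lower, with a median of 0.075. Sgcb, a sarcoglycan, averaged 25.4 ± 1.05 CPM in shARF and 11.9 ± 0.591 CPM in shNT (1.10, edgeR adjusted p = 8.76e-06). Sgcb rose while Dag1 itself fell, but the 6 lower genes of this list moved the same way as Dag1. Of 11 other receptors for laminin, nidogen, perlecan or agrin tested, 7 were higher and 1 lower, with a median of 0.46. Sdc2, a syndecan, averaged 444 ± 5.63 CPM in shARF and 246 ± 1.99 CPM in shNT (0.85, edgeR adjusted p = 3.29e-07). Gpc1, a glypican, averaged 224 ± 5.15 CPM in shARF and 144 ± 5.75 CPM in shNT (0.63, edgeR adjusted p = 1.09e-05). Ptprf, a receptor phosphatase that binds a laminin and nidogen complex, averaged 337 ± 1.14 CPM in shARF and 218 ± 1.38 CPM in shNT (0.63, edgeR adjusted p = 6.33e-07). The lower one, looked up after the count, was Ptprs (-0.07, edgeR adjusted p = 0.0451). Its call was lost without shARF replicate 1, 2 or 3 or without shNT replicate 3 (edgeR adjusted p = 0.082, 0.156, 0.0894 and 0.0597), without a filter (0.0739), with the replicate block (0.0585) and with DESeq2 (0.0547).

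**Figure D5:**
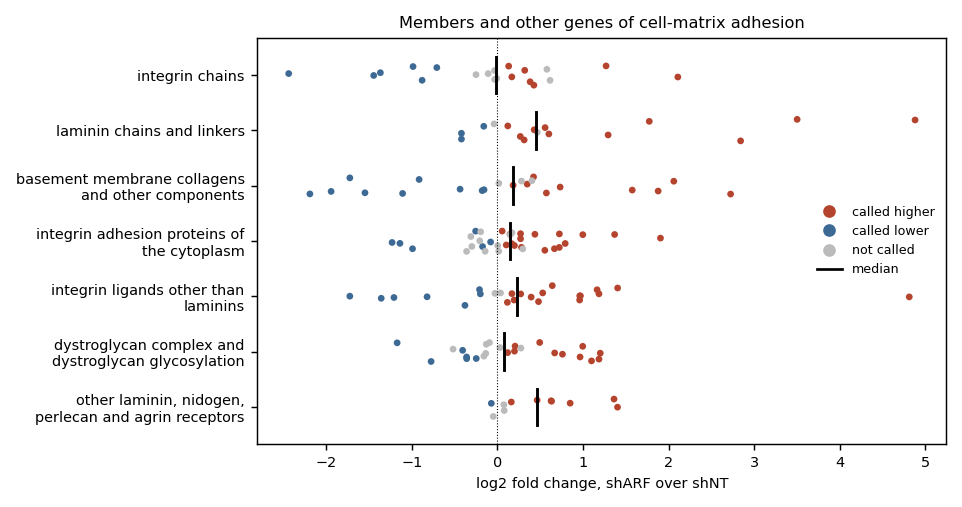
Log2 fold change (horizontal axis, shARF over shNT) of integrin chains, of laminin chains and linkers, and of the 5 lists of other adhesion genes; each point is a gene tested, red where called higher, blue where called lower and grey where not called, and black bars are medians. Medians run from -0.02 for integrin chains to 0.46 for the other receptors, and every row holds genes on both sides of 0.

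The alpha chains that bind laminin and pair with Itgb1 showed small rises (Itga3 0.13 and Itga6 0.38, on the log2 scale) or a fall (Itga7 -1.37), with Itgb1 at -0.03. The most abundant gamma and beta chains of laminin rose by 0.56 for Lamc1, 0.43 for Lamb1 and 0.27 for Lamb2. Changes of the laminin alpha chains were 0.12 for Lama5, -0.16 for Lama4 and -0.42 for Lama2. Lama1 and Lama3, both at low levels, rose by 3.50 and 2.84. Cd151, a tetraspanin that associates with laminin-binding integrins, named after its values were seen, was at 152, 143 and 101 CPM in shARF libraries, against 49, 50.3 and 54.6 CPM in shNT libraries (1.36, SE 0.15, edgeR adjusted p = 2.82e-04). Of 7 endothelial markers 3 were tested, with 1 called higher and 2 lower, while Cdh5 and Tie1 were at 0 in all libraries. Kdr was at 3.13 CPM in shARF and 0.282 CPM in shNT (higher), Tek at 0.067 CPM in shARF and 2.16 CPM in shNT (lower), and Vwf at 0.195 CPM in shARF and 0.675 CPM in shNT (lower). Of 5 Schwann markers 2 were tested, with Erbb3 called lower (0.224 CPM in shARF and 0.822 CPM in shNT), while Sox10 and Foxd3 were at 0 in all libraries. The summed level of 5 Schwann markers was 0.736 to 1.07 CPM in shARF and 1.36 to 1.8 CPM in shNT libraries, and that of the endothelial markers 2.99 to 3.8 CPM in shARF and 3.12 to 3.43 CPM in shNT libraries, in which Kdr and Tek moved opposite ways. Mesothelial markers, from cells that rest on a basement membrane, differed: Upk3b was at 12 CPM in shARF and 0.0137 CPM in shNT and Wt1 at 9.54 CPM in shARF and 0.102 CPM in shNT, while Msln was at 54.4 CPM in shARF and 84.2 CPM in shNT. With 4 of 5 called higher and 1 lower, their summed level was 111 to 114 CPM in shARF and 105 to 108 CPM in shNT libraries. The part of these cell types in the changes of laminin, nidogen and collagen IV genes was not tested.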

How the data were processed

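Gene-level counts of 6 libraries were used, 3 shARF and 3 shNT, grouped and numbered by their titles. The authors deposited whole-number counts per gene, not normalized; per the labels' protocols, total RNA went into stranded libraries after ribosomal RNA removal. Per the submitters' processing notes, which assign no roles, the build was GRCm38 and the tools included HISAT2 2.1.0 (an aligner), StringTie 1.3.2 and Picard 2.13.2, beside DESeq2 1.34.0, SAMtools 0.1.19 and Trim Galore 0.4.1. The counter, its annotation, its strand setting and duplicate removal are not stated there. Without strand, reads of overlapping genes would be mixed, and removing duplicates would lower the most abundant genes. Another 6 columns, which match none of the samples, were left unused. The shARF column names carry other index numbers than the sample titles, so columns were matched on group and replicate.

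Symbols, coordinates and exon lengths came from GENCODE M21 (GRCm38), which matched 54723 of 54752 IDs without the version. The test was the two-sided quasi-likelihood F test of edgeR 4.0.16 (R 4.3.3; glmQLFit, glmQLFTest) with group as the sole term, TMM factors and filterByExpr defaults (minimum count 10, minimum total 15), and a threshold of 0.05 on p-values adjusted by Benjamini-Hochberg across the 17128 genes. Here CPM use the TMM-scaled library sizes and means carry the SD of 3 libraries; the SE is the log2 fold change over the square root of F. The scripts were tested on simulated data, where the share of false calls was above the nominal threshold. Many changes were missed, the smaller ones most often, so calls near the threshold and of small size are the least certain. Far fewer genes were changed in the simulation than were called here, so its shares do not carry over to these calls. Within a group, chi-square per gene between libraries was 13.8 to 18.5, above sampling noise, so none was treated as a repeat.

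The genes and lists were chosen with earlier results of these data known. Every gene of the set could be named; from each list of other adhesion genes the 3 with the smallest p were named, and those of at least 5 CPM with a log2 fold change of at least 2 either way. Exceptions are marked. A few genes are counted but not reported here by name. Of the 10 marker lists, that of skeletal muscle summed to 0.558 to 0.94 CPM in shARF and 0.431 to 0.912 CPM in shNT libraries. Alternatives were DESeq2 1.42.0, limma-voom (limma 3.58.1), other scalings and filters, a replicate block, a threshold of 0.01, each library left out, and the longest transcript as length.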

Additional observations from a re-analysis of the deposited data

How the results depend on the processing

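No called gene of the 27 reversed under any of up to 15 alternatives, and 20 of them were called under all of them. The others were Itga6, Itgb7, Itgav, Itga3 and Lama5, which were not called with library sizes alone, and Dag1 and Lama3, which were lost at a threshold of 0.01. Counts were 13 to 18 higher and 8 to 12 lower over the fits with all libraries, and 16 to 19 higher and 9 lower when each library was left out in turn. Among genes not called, the log2 fold change reversed for Itgb5 (-0.01) without shARF replicate 1 (0.000196), shARF replicate 3 (0.00904) or shNT replicate 3 (0.00313), for Itgb4 (-0.03) without shARF replicate 1 (0.123) or shNT replicate 2 (0.148), and for Itga2 (-0.25) without shNT replicate 3 (0.00736). With 1 library left out they ranged from -0.0249 to 0.00904 for Itgb5, from -0.149 to 0.148 for Itgb4 and from -0.607 to 0.00736 for Itga2; the cause was not tested. Over all genes, 9667 were called, 9226 with DESeq2 and 7423 at the threshold of 0.01. DESeq2 tested 22434 genes and called 41.1% of them, and without a filter 27864 were tested and 33.7% called. With the longest transcript as length, 19 chain shares of at least 1% did not overlap between groups, in place of 18. Over all genes tested, 64.6% had groups that did not overlap. The difference in share between groups moved by at least the SD between libraries for 10 chains, stayed within it for 10 and changed direction for 0. Replicate numbers did not pair the libraries (correlations of same-numbered deviations -0.09, -0.021 and 0.006); a fit with the replicate number as a block gave 18 higher and 9 lower and 8913 calls over all genes. Depth limits Itgae, Itgb6, Itgb2, Lamb3, Lama3 and Lamc3, which rest on few reads.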
